A study of Mus musculus with 4 samples.

Results

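MHC class II presentation genes were followed across 4 bulk RNA-seq libraries of mouse pancreatic tissue lying beside Panc02 tumours, a mouse pancreatic ductal adenocarcinoma line. There were 2 libraries from CRFR1-KO mice and 2 from WT mice, named CRFR1-KO 1, CRFR1-KO 2, WT 1 and WT 2. CRFR1 is the receptor for the stress peptide corticotropin-releasing factor, and the labels call the CRFR1-KO animals conditional knockouts without giving the Cre driver, the strain or the age. Tissue of both genotypes lay beside tumour, so there is no tumour-free comparison. Whether each library is a separate animal is not stated, so the spread between replicates may be technical. The 8 genes, H2-Aa, H2-Ab1, H2-Eb1, H2-DMa, H2-DMb1, Cd74, Ciita and Ctss, were taken by symbol from 55401 gene identifiers. They were chosen by role in class II presentation and with their measured CRFR1-KO against WT differences in these same libraries known, so those differences are described here and not tested.

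MHC class II molecules show peptides from engulfed or endosomal protein to CD4+ T cells. An alpha and a beta chain are assembled in the endoplasmic reticulum around the invariant chain, which blocks the groove and directs the complex to endosomes. There the invariant chain is trimmed to a short fragment that the H2-DM heterodimer exchanges for a peptide. Dendritic cells, macrophages and B cells express these genes constitutively or readily, and other cells can do so under interferon-gamma. Transcription depends on Ciita, a coactivator that is recruited by factors bound to the X and Y boxes of class II promoters.

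Stretches of 3 promoters are shown because the chain genes and Ctss ran in opposite directions in the values that follow. RefSeq's GRCm38.p6 promoter table held 5 of the 8 genes and lacked H2-Ab1, Cd74 and Ciita. Each stretch is the 120 bases that end just before the annotated start site, on the gene's own strand. Capitals mark GNAAC, the core letters of the X box, and ATTGG, those of the Y box, in H2-Aa and H2-Eb1, and the letters GAAA, any 2 bases, GAAA, a pattern bound by interferon regulatory factors, in Ctss. H2-Aa lies at chr17:34287824-34287943 on the minus strand, H2-Eb1 at chr17:34305747-34305866 on the plus strand and Ctss at chr3:95526666-95526785 on the plus strand.
H2-Aa: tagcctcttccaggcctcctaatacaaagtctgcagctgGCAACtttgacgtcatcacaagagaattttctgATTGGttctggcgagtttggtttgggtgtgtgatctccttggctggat
H2-Eb1: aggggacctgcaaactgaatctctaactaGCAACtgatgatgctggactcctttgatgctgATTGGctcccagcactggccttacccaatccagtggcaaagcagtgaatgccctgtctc
Ctss: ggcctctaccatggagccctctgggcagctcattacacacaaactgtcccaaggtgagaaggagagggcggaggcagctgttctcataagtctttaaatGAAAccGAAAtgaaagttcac

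GNAAC followed by ATTGG on the same strand, with 15 to 45 bases between them, was found in the 250 bases before the RefSeq start sites of H2-Aa, H2-Eb1 and H2-DMb1. For H2-DMb1 that stretch overlaps an exon in GENCODE M21, which has an earlier start. The X core began 81 bases before the start site in H2-Aa, 91 in H2-Eb1 and 94 in H2-DMb1. The spacing between the cores was nearly the same in all 3, at 28 bases in H2-Aa and H2-DMb1 and 27 in H2-Eb1. This pair occurred in 4.15% of all 32851 promoters of the table, searched on both strands. A longer X core, AGNAAC, with the same spacing to ATTGG was in H2-Eb1 and H2-DMb1 but not in H2-Aa, and in 1.34% of all promoters. Neither pair was in the H2-DMa windows or in the Ctss window. The H2-DMa windows end at 34122831 and 34125517 on chromosome 17, inside the gene that GENCODE M21 starts at 34119541. The window ending at 34122831 overlaps an H2-DMa exon. They may not hold the promoter in use, so whether the pairs set all class II genes apart from Ctss is not settled. The Ctss window held GAAA, any 2 bases, GAAA, as 2.98% of promoters did on either strand. The GNAAC pair and the GAAA pattern were chosen after the sequences were seen. Alone, ATTGG was in 33.8% and AGNAAC in 42.3% of promoters. A match is a match of letters, not a measured binding site.

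Library totals lay between 63495457 and 71203640 counts, and digestive enzyme and other acinar genes took 82.9% to 85.9% of them. Class II transcripts were therefore read from the small remainder, where 3 counts equal 0.0363 to 0.048 CPM (counts-per-million on library sizes scaled by the trimmed mean of M values). WT 1 stood apart: its scaled library size was 82667347, against 62501291 to 65464931 in the other 3 libraries, and Col1a1 had 6066 counts there against 652 to 948 in the others. Values without WT 1 are given for H2-Aa, Cd74 and the H2-DM genes, where they moved most. Over all 15131 genes tested, the median log2 fold change of CRFR1-KO over WT was -0.01, and it was -0.13 when libraries were scaled on their totals alone.

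Transcripts of the class II chains and of Cd74, the invariant chain, were measured higher in CRFR1-KO tissue. Transcripts of Ctss, which encodes a protease that trims the invariant chain, were measured lower. Protein was not measured. H2-Aa, H2-Ab1, H2-Eb1 and Cd74 were each 1.44 to 1.70 times as high in CRFR1-KO as in WT, with both CRFR1-KO libraries above both WT libraries. Ctss stood at 0.55 times its WT level, with both CRFR1-KO libraries below both WT libraries. The log2 fold changes of H2-DMa, H2-DMb1 and Ciita were each smaller than their standard errors. In all, 7 of the 8 genes had a positive log2 fold change, against 49.2% of all genes tested, and 1 a negative one, against 50.8%. Their median was 0.56. Both CRFR1-KO libraries exceeded both WT libraries for 5 of the 8, against 16.6% of all genes, and both lay below for 1, against 16.9%. After adjustment over all genes, 0 of the 8 passed in edgeR, where 0.0264% of all genes passed, and 0 passed in DESeq2 or limma-voom. At an unadjusted p under 0.05 in edgeR there were 5, against 4.86% of all genes, and since the genes were chosen with this contrast known, nothing is read from these counts.

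**Figure D1:**
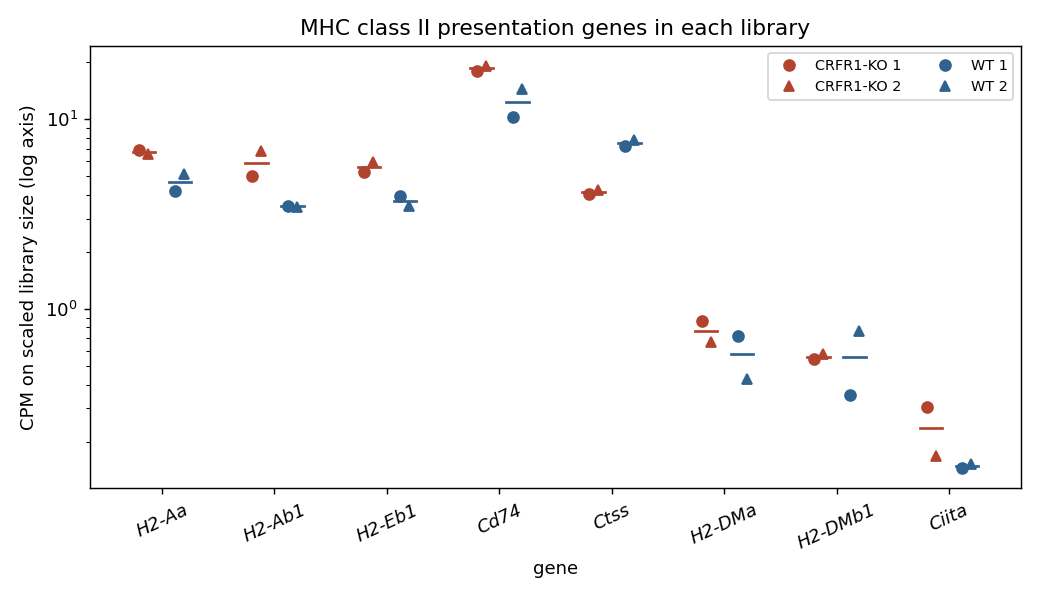
CPM of each of the 8 genes (log axis) in the 2 CRFR1-KO libraries (red) and the 2 WT libraries (blue), with replicate 1 as a circle, replicate 2 as a triangle and the group mean as a bar. Cd74 lies at 18.0 and 19.1 CPM in CRFR1-KO and at 10.2 and 14.5 CPM in WT, and Ctss is the only one of the 8 with both CRFR1-KO points below both WT points.

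The chain genes form the peptide-binding groove. H2-Aa (ENSMUSG00000036594; chromosome 17, 34282744 to 34287823, minus strand, GRCm38 in GENCODE M21), the alpha chain of the H2-A molecule, had 429 and 427 counts in CRFR1-KO 1 and 2, against 345 and 336 in WT 1 and 2. That is 6.86 and 6.52 CPM in CRFR1-KO, against 4.17 and 5.13 CPM in WT. The groups did not overlap, and the log2 fold change was 0.53 with a standard error (SE) of 0.21. Without WT 1 it was 0.38.

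H2-Ab1 (ENSMUSG00000073421; chromosome 17, 34257689 to 34269419), the beta chain that pairs with it, had 313 and 446 counts in CRFR1-KO and 289 and 227 in WT. Its levels were 5.01 and 6.81 CPM in CRFR1-KO, against 3.50 and 3.47 CPM in WT. The WT libraries were nearly equal and CRFR1-KO 2 was the highest (log2 fold change 0.76, SE 0.23). Leaving out CRFR1-KO 2 gave 0.53 and leaving out CRFR1-KO 1 gave 0.97.

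H2-Eb1 (ENSMUSG00000060586; chromosome 17, 34305867 to 34316674), the beta chain of the H2-E molecule, had 330 and 391 counts in CRFR1-KO and 325 and 228 in WT. At 5.28 and 5.97 CPM in CRFR1-KO, against 3.93 and 3.48 CPM in WT, it too was separated by genotype (log2 fold change 0.60, SE 0.21). On raw counts the separation was narrow, at 330 in CRFR1-KO 1 against 325 in WT 1, whose scaled size was larger. H2-E needs an alpha chain whose gene is defective in some mouse strains. That gene, listed as H2-Ea-ps, had a count of 0 in all 4 libraries, a limit of 0.048 CPM in CRFR1-KO 1 and of 0.0363 in WT 1, so H2-Eb1 transcripts were present without detectable transcripts of a partner.

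Cd74 (ENSMUSG00000024610; chromosome 18, 60803848 to 60812652), the invariant chain, was the most abundant of the 8 per kb of annotated exon. It had 1127 and 1248 counts in CRFR1-KO and 845 and 948 in WT, or 18.0 and 19.1 CPM in CRFR1-KO, against 10.2 and 14.5 CPM in WT. The CRFR1-KO libraries lay close together and WT 1 was the lowest (log2 fold change 0.59, SE 0.21). Without WT 1 the value was 0.36, and without WT 2 it was 0.86, so the size of the Cd74 difference depended on which WT library it was set against.

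Ctss (ENSMUSG00000038642; chromosome 3, 95526786 to 95556403) encodes cathepsin S, the endosomal protease that makes the last cuts in the invariant chain in dendritic cells and B cells and is also abundant in macrophages. It had 253 and 276 counts in CRFR1-KO and 600 and 509 in WT, or 4.05 and 4.22 CPM in CRFR1-KO, against 7.26 and 7.78 CPM in WT. Replicates agreed closely within each genotype, and the groups were far apart (log2 fold change -0.86, SE 0.19). Leaving out each library in turn gave values between -0.91 and -0.81, the narrowest such range among the 8 genes.

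The exchange factor genes had at most 60 counts in a library. H2-DMa (ENSMUSG00000037649; chromosome 17, 34119541 to 34139101) had 54 and 44 counts in CRFR1-KO and 60 and 28 in WT, which overlap (0.86 and 0.67 CPM in CRFR1-KO, 0.73 and 0.43 CPM in WT; log2 fold change 0.41, SE 0.57). Without WT 1 that value was 0.84, and without WT 2 it was 0.09. H2-DMb1 (ENSMUSG00000079547; chromosome 17, 34153072 to 34160230) had 34 and 38 counts in CRFR1-KO, inside the range of 29 and 50 in WT. Its log2 fold change of 0.02 (SE 0.65) turned to -0.44 without WT 1, to -0.02 without CRFR1-KO 2 and to -0.04 on library totals, so that 2 of the 8 genes rather than 1 were then lower. H2-DMb2, a close copy of H2-DMb1, had 0 counts in all 4 libraries, and reads that match both copies make the level of either uncertain. H2-DMa also overlaps exons of Brd2 on the opposite strand, which had 1557 to 2457 counts, and the strand setting of the counting is not given in the sources used here.

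Ciita (ENSMUSG00000022504; chromosome 16, 10480059 to 10528418), the coactivator of the other class II genes, was barely detected. It had 19 and 11 counts in CRFR1-KO and 12 and 10 in WT. Scaled values were 0.30 and 0.17 CPM in CRFR1-KO and 0.15 and 0.15 CPM in WT, so the groups were separated in CPM but overlapped in counts. The log2 fold change was 0.17 without CRFR1-KO 1 and 1.03 without CRFR1-KO 2. With all 4 libraries the value of 0.66 had an SE of 0.96, and a change of the size seen in the chain genes was not detectable at this depth. Exons of Dexi, with 605 to 952 counts, overlap Ciita on the opposite strand.

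Per kb of annotated exon, the order of the 8 genes by group mean was the same in both genotypes. Cd74 led at 11.05 ± 0.43 CPM per kb in CRFR1-KO and 7.36 ± 1.80 in WT (SD, n = 2 libraries each). Ctss followed at 3.04 ± 0.09 CPM per kb in CRFR1-KO and 5.54 ± 0.27 in WT. In CRFR1-KO its range overlapped that of the next gene, H2-Eb1, at 2.89 ± 0.25 CPM per kb, whereas in WT, with H2-Eb1 at 1.91 ± 0.16, the 2 were apart. H2-Ab1 and H2-Aa came next, at 2.30 ± 0.50 and 1.76 ± 0.06 CPM per kb in CRFR1-KO and 1.36 ± 0.01 and 1.23 ± 0.18 in WT, where their ranges overlapped. H2-DMb1, H2-DMa and Ciita were all below 0.5 CPM per kb in every library, and the ranges of the H2-DM genes overlapped in WT.

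Ratios of counts within one library do not depend on how libraries were scaled. There were 22.4 and 22.1 Ctss counts per 100 Cd74 counts in CRFR1-KO 1 and 2, against 71.01 and 53.7 in WT 1 and 2. Set against the sum of H2-Aa, H2-Ab1 and H2-Eb1, Ctss stood at 23.6 and 21.8 per 100 in CRFR1-KO and 62.6 and 64.3 in WT. Both ratios separated the genotypes, as they had to, since Ctss was lower and its divisors higher in both CRFR1-KO libraries. They are no further evidence beside those differences. Ratios between Cd74 and the chain genes overlapped. Cd74 stood at 105 and 98.7 per 100 chain counts in CRFR1-KO, inside the range of 88.1 and 119.8 in WT. H2-Ab1 stood at 73.0 and 104.5 per 100 H2-Aa counts in CRFR1-KO, which overlapped the 83.8 and 67.6 in WT. The 2 H2-DM genes together stood at 8.21 and 6.49 per 100 chain counts in CRFR1-KO and at 9.28 and 9.86 in WT, with both CRFR1-KO libraries below both WT libraries on few H2-DM counts.

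**Figure D2:**
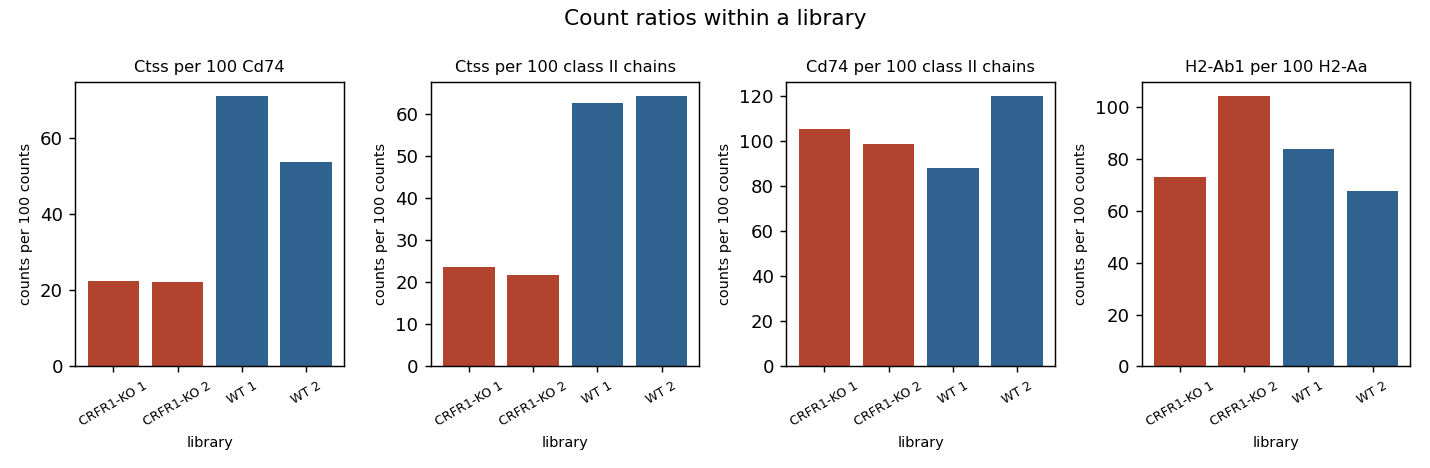
Counts of one gene or group per 100 counts of another in each library, with CRFR1-KO in red and WT in blue. Ctss per 100 Cd74 is 22.4 and 22.1 in CRFR1-KO and 71.01 and 53.7 in WT, while Cd74 per 100 chain counts and H2-Ab1 per 100 H2-Aa overlap between the genotypes.

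Other genes of the pathway were taken from lists, and those named below are the up to 3 of each list with the smallest p. Of 34 tested genes in 4 lists (loading and processing, transcription, interferon-gamma axis, costimulation), 0 passed in edgeR after adjustment over all genes, where 0.0264% of all genes passed. DESeq2 and limma-voom also called 0, and edgeR had 4 at an unadjusted p under 0.05, Lgmn, Ctsl, Spi1 and Irf8, against 4.86% of all genes. Each of the 4 was lower in CRFR1-KO, as 3.15% of all genes were at that p.

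Loading and processing genes leaned the way of Ctss. Of 10 tested, 8 were lower and 2 higher, where 50.8% of all genes were lower. The log2 fold changes of Ifi30 and Ctsd, among the lower, and of H2-Ob and March8, the 2 higher, were smaller than their SEs. Their median log2 fold change was -0.36, against -0.01 over all genes. Lgmn, an asparaginyl endopeptidase that starts antigen and invariant chain cleavage, had 162 and 355 counts in CRFR1-KO and 958 and 451 in WT (log2 fold change -1.21, SE 0.39, edgeR adjusted p = 0.941). Ctsl, the cathepsin that trims the invariant chain in thymic epithelium, averaged 88.6 ± 4.2 CPM in CRFR1-KO and 127.3 ± 0.2 CPM in WT (SD, n = 2 libraries each). Its log2 fold change was -0.52 (SE 0.18, adjusted p by edgeR 0.968). Ctsz, a cysteine carboxypeptidase, was at -0.37 (SE 0.18). None of the 3 passed. Both CRFR1-KO libraries lay below both WT libraries for all 3, as they did for 16.9% of all genes. The 3 were picked by smallest p, so nothing is read from that separation. H2-Oa and H2-Ob, which form the H2-DM inhibitor of B cells, had 0 and 4 and 7 and 12 counts in CRFR1-KO, and 8 and 0 and 13 and 8 in WT, too few to compare.

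Among the transcription genes, those of the X and Y box factors lay between -0.23 (Rfxap) and 0.35 (Nfya) on the log2 scale of CRFR1-KO over WT, and a pair of myeloid factors was lower. Of 9 tested, 5 were higher and 4 lower (median log2 fold change 0.03). Nfya, a subunit of the Y box factor, averaged 3.52 ± 0.92 CPM in CRFR1-KO and 2.76 ± 0.09 CPM in WT (log2 fold change 0.35, SE 0.28; SD, n = 2 libraries each). Spi1, the PU.1 factor of myeloid cells, had 17 and 31 counts in CRFR1-KO and 124 and 63 in WT (log2 fold change -1.72, SE 0.56, edgeR adjusted p = 0.948). Irf8, a factor of dendritic cell and macrophage development, had 53 and 64 counts in CRFR1-KO and 169 and 102 in WT (log2 fold change -0.98, SE 0.38). Neither Spi1 nor Irf8 passed. Both CRFR1-KO libraries lay below both WT libraries for each, as they did for 16.9% of all genes. Since they were picked by smallest p, nothing is read from that separation.

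Interferon-gamma axis genes were split, with 6 of 11 tested higher, 5 lower and a median log2 fold change of 0.06. Ifng itself had a count of 0 in all 4 libraries. The kinase gene Jak1 averaged 39.2 ± 1.8 CPM in CRFR1-KO and 30.7 ± 5.2 CPM in WT (log2 fold change 0.35, SE 0.19; SD, n = 2 libraries each). The interferon-induced GTPase genes Gbp2 and Gbp3 stood at 0.55 (SE 0.40) and 0.30 (SE 0.36) on the log2 scale. None passed. Costimulation genes were few in counts, and all 4 tested were lower, against 50.8% of all genes. Cd86, which engages CD28 on T cells, had 7 and 12 counts in CRFR1-KO and 49 and 31 in WT (log2 fold change -1.84, SE 0.80, not past the edgeR adjustment). The ligand genes Icosl and Cd80 stood at -0.19 (SE 0.52) and -0.31 (SE 0.87).

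**Figure D3:**
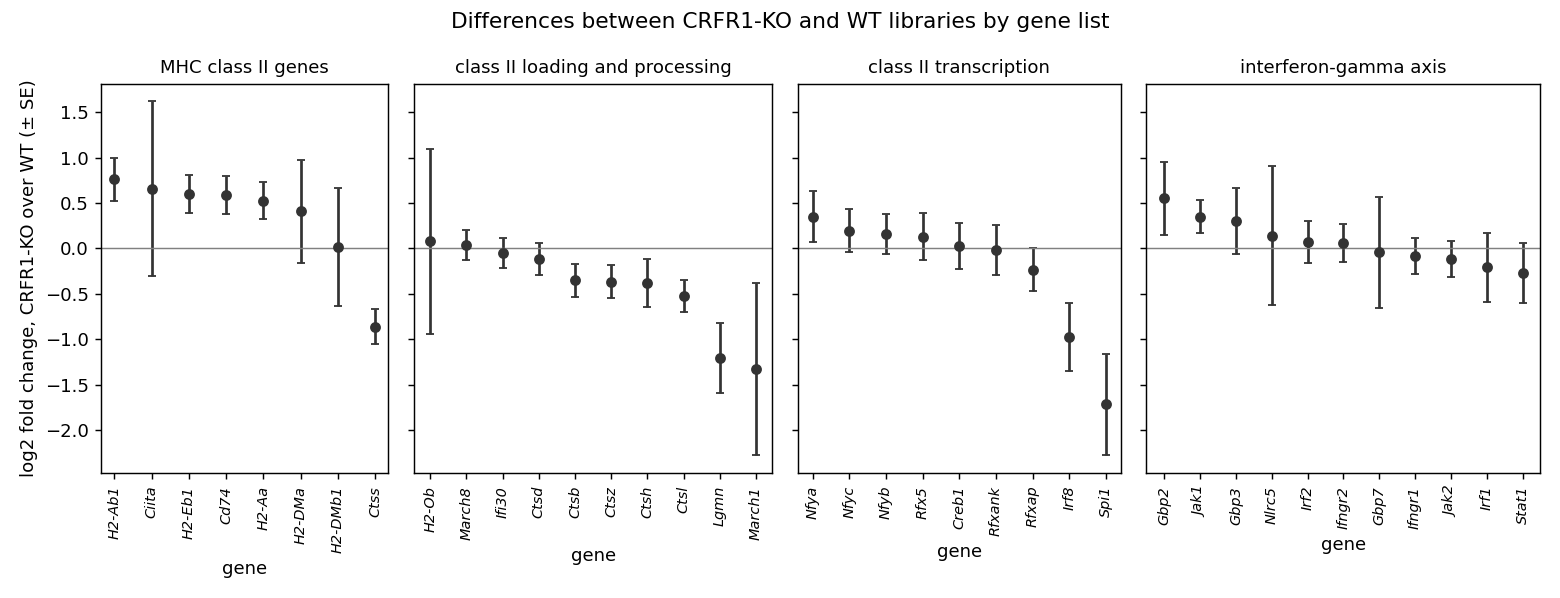
Log2 fold change of CRFR1-KO over WT (points) with its SE (bars) for the 8 class II genes and the tested genes of 3 pathway lists. H2-Ab1, H2-Eb1, Cd74 and H2-Aa lie between 0.53 and 0.76 and Ctss at -0.86, while 8 of 10 loading and processing genes lie below 0.

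The macrophage and pan-leukocyte marker sums were lower in CRFR1-KO, opposite to the chain genes. Both sums were highest in WT 1, and those of CRFR1-KO 2 and WT 2 lay closer together. Single markers did not all follow: Ptprc was highest in CRFR1-KO 2, at 3.41 CPM, against 2.55 and 2.78 CPM in WT. In bulk tissue fewer cells of a type and less RNA per cell cannot be told apart. Summed over H2-Aa, H2-Ab1, H2-Eb1 and Cd74, the level was 35.2 and 38.4 CPM in CRFR1-KO and 21.8 and 26.6 CPM in WT. The 12 macrophage markers summed to 28.6 and 46.5 CPM in CRFR1-KO and 83.7 and 52.9 CPM in WT, with 11 of 12 lower and a median log2 fold change of -0.87. Csf1r, the receptor for macrophage colony-stimulating factor, had 377 and 609 counts in CRFR1-KO and 1416 and 677 in WT. The complement gene C1qa had 312 and 417 in CRFR1-KO and 926 and 425 in WT, and the mannose receptor gene Mrc1 had 154 and 455 in CRFR1-KO and 1061 and 438 in WT, where the genotypes overlapped. The 6 pan-leukocyte markers summed to 5.57 and 9.75 CPM in CRFR1-KO and 14.4 and 11.3 CPM in WT, and all 6 were lower. The log2 fold changes of Ptprc, Coro1a and Cd52 were smaller than their SEs. Of all genes tested, 50.8% were lower. Laptm5 averaged 2.78 ± 0.72 CPM in CRFR1-KO and 5.89 ± 0.70 CPM in WT, Ptprc 2.37 ± 1.47 and 2.67 ± 0.16 CPM, and Rac2 0.81 ± 0.02 and 1.63 ± 0.36 CPM (SD, n = 2 libraries each).

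Relative to the macrophage sum, the 4 class II genes stood at 1.23 and 0.83 in CRFR1-KO and 0.26 and 0.50 in WT. Ctss relative to the same sum was 0.14 and 0.09 in CRFR1-KO and 0.09 and 0.15 in WT, which overlapped. Against the pan-leukocyte sum the ratios were likewise apart for the class II genes, at 6.32 and 3.94 in CRFR1-KO and 1.52 and 2.35 in WT, and overlapped for Ctss, at 0.73 and 0.43 in CRFR1-KO and 0.50 and 0.69 in WT. The class II ratios to these sums had to separate, since the class II sum was higher and both marker sums lower in both CRFR1-KO libraries. They are no further evidence beside those differences. Against the dendritic cell sum the class II genes and Ctss were each apart. The class II genes stood at 3.63 and 5.38 in CRFR1-KO and 2.28 and 2.45 in WT. Ctss stood at 0.42 and 0.59 in CRFR1-KO and 0.76 and 0.72 in WT. Most of that sum was Zbtb46, at 7.58 and 4.45 CPM in CRFR1-KO and 5.04 and 6.78 CPM in WT. These ratios therefore rest largely on a single marker, and nothing about dendritic cells is read from them. Against the B cell sum, which rests on few counts, the class II genes overlapped, at 88.0 and 31.4 in CRFR1-KO and 53.1 and 124.2 in WT, and Ctss was apart, at 10.1 and 3.45 in CRFR1-KO and 17.6 and 36.4 in WT. The part of macrophage content in the Ctss difference was not tested.

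Dendritic cells and B cells, the other usual carriers, left few counts: apart from Zbtb46 and Clec10a, no marker of either list exceeded 42 counts in a library. The 10 dendritic cell markers summed to 9.70 and 7.13 CPM in CRFR1-KO and 9.57 and 10.8 CPM in WT, but most of that was Zbtb46, at 474 and 291 counts in CRFR1-KO and 417 and 444 in WT. Clec10a, a lectin gene of macrophages as well, had 75 and 114 counts in CRFR1-KO and 320 and 203 in WT, and Itgax, encoding CD11c, had 13 and 21 in CRFR1-KO and 24 and 4 in WT. Of the 8 B cell markers, Ms4a1 and Fcer2a were at 0 in every library. The B cell sum was 0.40 and 1.22 CPM in CRFR1-KO and 0.41 and 0.21 CPM in WT. CRFR1-KO 2 alone stood out, with 16 counts of Cd79b, against 0 in CRFR1-KO 1 and in both WT libraries. Without CRFR1-KO 2, which leaves a lone CRFR1-KO library, the log2 fold changes of H2-Aa, H2-Ab1, H2-Eb1 and Cd74 were 0.57, 0.53, 0.52 and 0.55, in that order. The part of B cell content in the class II differences was not tested.

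**Figure D4:**
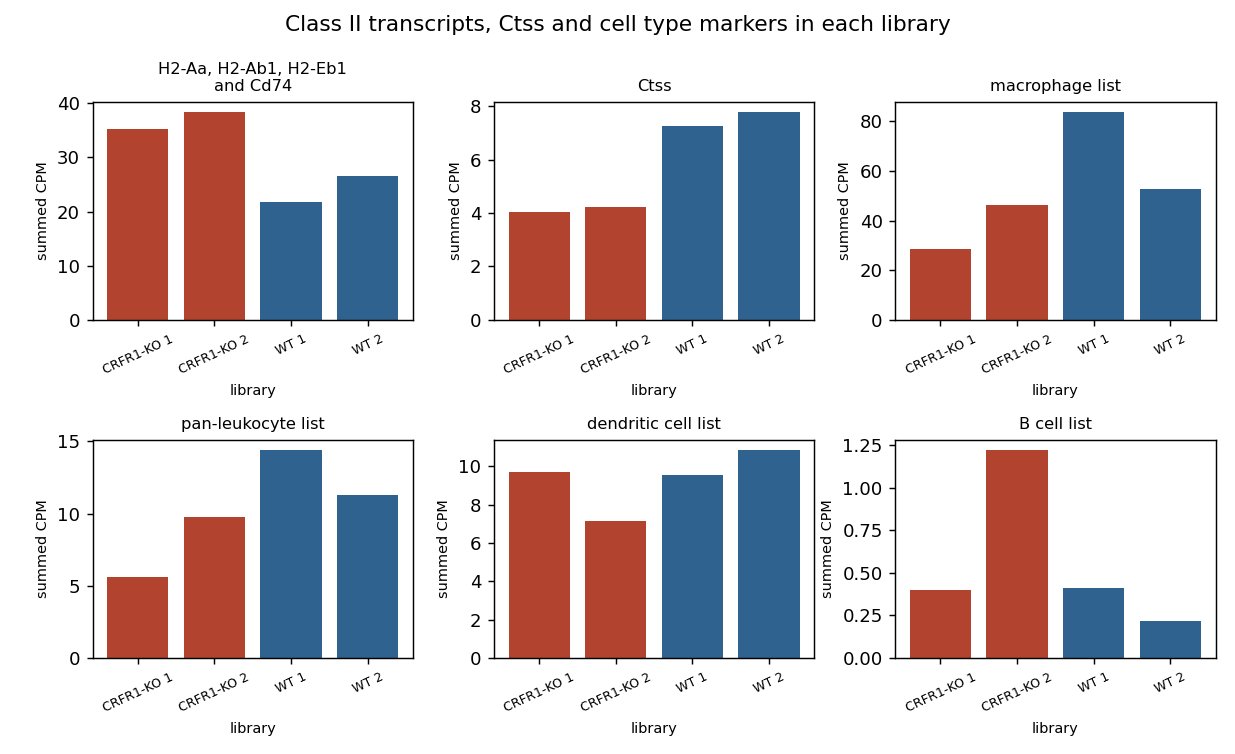
Summed CPM in each library of H2-Aa, H2-Ab1, H2-Eb1 and Cd74, of Ctss, and of 4 marker lists, with CRFR1-KO in red and WT in blue. The class II sum is 35.2 and 38.4 CPM in CRFR1-KO and 21.8 and 26.6 CPM in WT, while the macrophage sum is 28.6 and 46.5 CPM in CRFR1-KO and 83.7 and 52.9 CPM in WT.

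The receiving T cells were hardly represented. The 8 T cell markers summed to 0.53 and 0.76 CPM in CRFR1-KO and 1.21 and 1.77 CPM in WT, with Cd3d at 0 throughout. Cd4, the class II coreceptor, had 16 and 33 counts in CRFR1-KO and 47 and 37 in WT. Mast cell markers were at 0 in all libraries for 6 of 8 genes. Fibroblast markers summed to 110.6 and 125.8 CPM in CRFR1-KO and 283.7 and 174.2 CPM in WT, and 7 of 8 were lower. Duct markers summed to 124.8 and 111.4 CPM in CRFR1-KO and 145.5 and 117.2 CPM in WT, where 5 of 6 were lower. Of all genes tested, 50.8% were lower. Over all 8 cell type lists, 0 of 43 tested markers passed in edgeR, 1 in DESeq2 (the fibroblast marker Mfap5) and 0 in limma-voom, and 17 had an unadjusted p under 0.05, all lower in CRFR1-KO, against 3.15% of all genes that were lower at that p.

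Genes whose profile over the 4 libraries was most like the median profile of the 8 were Ggact, Ube2w, Slc46a3, Uap1l1 and Ppp4r2, out of 5733 candidates with at least 5 CPM. Their root mean square distances were 0.01 to 0.03 log2 units. Ggact had 6.21 and 5.82 CPM in CRFR1-KO and 4.43 and 4.84 CPM in WT. Of the 8 genes themselves, H2-Aa lay nearest that median profile, at 0.09 log2 units, and Ctss farthest, at 0.57.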

How the data were processed

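Gene expression was measured by poly(A) RNA-seq in 4 libraries. Per the labels' protocols, mRNA was selected on oligo(dT) beads and libraries were made with a dUTP-marked second strand. The authors deposited raw whole-number counts per Ensembl gene. The tools named per the submitters' processing notes are FastQC, DESeq2 and edgeR. For aligner, counter, strand setting and build, the entry is not given in the sources used here. Symbols, matched for 55141 of 55401 identifiers, positions and exon lengths came from GENCODE M21 (GRCm38). All columns were mapped by library name.

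The main test was edgeR 4.0.16 in R 4.3.3 (TMM, filterByExpr, two-sided quasi-likelihood F test with genotype as sole term), with Benjamini-Hochberg adjustment over 15131 genes and a threshold of 0.05. All 8 genes passed the filter. The SE was derived from the F statistic. With 2 libraries against 2, an exact permutation test cannot go below a two-sided p of 0.333, so none was used. DESeq2 1.42.0, limma-voom (limma 3.58.1), leaving out each library, a replicate block, and other scalings and filters were alternatives. Counts of 4 and 8 were over-represented (912 genes with 4 counts, 356 with 3, in CRFR1-KO 1), so what 1 deposited count stands for in reads is not settled, and floors of 3 counts cover counting error only.

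The genes, lists and tests were chosen with earlier results of these data known. Named were the 8 genes, up to 3 genes of smallest p per pathway list, H2-Ea-ps, H2-Oa, H2-Ob and H2-DMb2, and up to 3 most abundant markers per cell type described in detail. Col1a1, Cd79b, Ms4a1, Fcer2a, Cd3d, Mfap5, Ifng, Ifi30, Ctsd and March8 were named after their values were seen. Like genes were ranked on centred log2(CPM + 0.5). One marker of the planned lists is not reported here and is in no sum.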

Additional observations from a re-analysis of the deposited data

How the results depend on the processing

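The median log2 fold change of the 8 genes, 0.56, lay between 0.44 and 0.58 under the other scalings, filters, tools and count units, and between 0.354 and 0.684 when each library was left out. It was lowest without CRFR1-KO 1. The number of the 8 that were lower was 1, and 2 on library totals and between 1 and 2 with each library left out, the second being H2-DMb1. H2-Aa, H2-Ab1, H2-Eb1, H2-DMa, Cd74 and Ciita were positive, and Ctss negative, under each alternative that tested them. At 1 CPM in 2 libraries the filter removed H2-DMa, H2-DMb1 and Ciita. Over all genes, 4 passed in edgeR, against 58 in DESeq2, 0 in limma-voom, 0 with exon-sharing models summed, and between 0 and 69 with each library left out (40 without WT 1, 69 without WT 2, 2 without CRFR1-KO 1). The causes were not tested. The labels name no link between same-numbered libraries beyond the number. Deviations of these libraries from the group means had r = -0.114 over 5906 genes, and the replicate block called 7 genes. With 2 libraries per genotype, this r cannot decide whether libraries were processed in pairs. The crossed pairing, added after the data were seen, called 13. A fit without a library leaves its genotype a lone library that is assumed to vary like the other. Depth limits H2-DMa, H2-DMb1 and Ciita, with at most 60 counts in a library.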
